A study of Homo sapiens with 12 samples.

Results

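The small nuclear RNA (snRNA) class of repeat copies was examined in PAR-CLIP libraries of A375, an established human melanoma line. The members were all repeat elements whose RepeatMasker class is exactly snRNA, taken on either strand, and 994 such copies in 12 subfamilies had a row in at least 1 library, among 2282616 elements with a rounded count and 1177 subfamilies of all classes. The subfamilies were U1 (94 copies), U2 (51), U4 (50), U5 (20), U6 (491), U7 (12), U3 (52), U8 (9), U13 (80), U13_ (123), U14 (6) and U17 (6). In PAR-CLIP the cells take up 4-thiouridine (4sU), ultraviolet light crosslinks RNA to protein, and an antibody against the tag then collects the protein together with bound RNA. All cells carried a V5-tagged protein by transient transfection, began 4sU labelling 24 h later and went through the same anti-V5 immunoprecipitation, and the RNA was depleted of rRNA before a stranded library was made. The 4 constructs gave 3 libraries each: Clover, which is a fluorescent control protein, Z18fl, which is full-length ZC3H18, Z18trunc, which is a truncated ZC3H18, and Z18truncZnFmut, which is the truncated form with aromatic residues of its zinc finger mutated. Expression from a plasmid adds to the ZC3H18 the cells already make, and no input library was analysed here, so more RNA in the cell and more RNA pulled down per molecule cannot be told apart.

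Spliceosomal snRNAs are short RNAs that work in ribonucleoproteins. U1 pairs with the start of an intron, U2 with its branch point, and U4, U5 and U6 join as one particle in which U6 is released from U4 before catalysis. U7 acts in the processing of histone mRNA ends. The same RepeatMasker class also holds nucleolar RNAs of ribosome production, namely the box C/D RNAs U3, U8, U13 and U14 and the H/ACA RNA U17. Each functional RNA comes from few genes, while the genome carries many further copies, most of them reverse-transcribed and diverged from the consensus.

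Sequences of the copies on which the results turn are shown from the hg38 genome on the transcribed strand. The first pair contrasts RNU1-2 (chr1:16895980-16896143, plus strand, in an intron of CROCC), which has the same 164 bases as 8 other U1 copies, with RNVU1-14 (chr1:145281116-145281281, plus strand), a U1 variant 7.9% diverged from the consensus and 91.0% identical to RNU1-2 in a global alignment. Capitals mark the letters ACTTACCTG, complementary to the start of introns, and ATTTGTG, the Sm protein site.
RNU1-2: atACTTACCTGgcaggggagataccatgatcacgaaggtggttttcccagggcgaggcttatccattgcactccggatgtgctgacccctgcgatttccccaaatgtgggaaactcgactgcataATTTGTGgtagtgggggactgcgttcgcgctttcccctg
RNVU1-14: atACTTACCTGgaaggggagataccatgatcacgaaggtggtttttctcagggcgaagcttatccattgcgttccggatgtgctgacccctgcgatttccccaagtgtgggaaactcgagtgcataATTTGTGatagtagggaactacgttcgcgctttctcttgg
For U2 the copy with the highest counts (chr17:43273105-43273292, minus strand, in an intron of CCDC200, annotated only as U2) is set beside RNU2-2P (chr11:62841624-62841809, minus strand, in an exon of WDR74), 96.3% identical to it. Capitals mark GTAGTA, which pairs with the branch point, and ATTTTTG, the Sm site, which is also marked in RNU4-1 (chr12:120293094-120293237, minus strand, between genes).
U2 in CCDC200: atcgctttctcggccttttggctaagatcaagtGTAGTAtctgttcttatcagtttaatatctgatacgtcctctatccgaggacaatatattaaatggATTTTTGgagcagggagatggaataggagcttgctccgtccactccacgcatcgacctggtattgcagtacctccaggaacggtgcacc
RNU2-2P: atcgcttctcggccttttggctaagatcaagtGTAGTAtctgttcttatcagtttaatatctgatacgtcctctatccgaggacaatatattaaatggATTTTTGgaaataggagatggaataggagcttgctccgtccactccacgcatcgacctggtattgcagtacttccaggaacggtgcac
RNU4-1: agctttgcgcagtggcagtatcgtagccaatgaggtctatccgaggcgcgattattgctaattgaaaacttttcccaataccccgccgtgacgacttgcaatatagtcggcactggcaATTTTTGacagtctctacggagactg
Among the nucleolar RNAs, SNORD3A (chr17:19188016-19188232, plus strand) and SNORD3D (chr17:19112420-19112636, minus strand) are U3 genes, and capitals mark the 3 bases at which they differ. SNORA73A (chr1:28507365-28507571, plus strand, in an intron of RCC1) is the U17 gene with most counts, with the ACA box near its end in capitals. SNORD14C (chr11:123059335-123059422), SNORD14D (chr11:123058909-123058995) and SNORD14E (chr11:123058077-123058156) are U14 genes on the minus strand within HSPA8, with ATGATGA (a form of box C) and the last CTGA (box D) in capitals where these letters are present. SNORD14C reads gtgatga near its start, which differs from ATGATGA in the first base and is not in capitals.
SNORD3A: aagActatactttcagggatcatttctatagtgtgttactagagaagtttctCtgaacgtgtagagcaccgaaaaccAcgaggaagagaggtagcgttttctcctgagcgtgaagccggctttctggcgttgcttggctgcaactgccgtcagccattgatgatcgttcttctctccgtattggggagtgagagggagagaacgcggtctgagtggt
SNORD3D: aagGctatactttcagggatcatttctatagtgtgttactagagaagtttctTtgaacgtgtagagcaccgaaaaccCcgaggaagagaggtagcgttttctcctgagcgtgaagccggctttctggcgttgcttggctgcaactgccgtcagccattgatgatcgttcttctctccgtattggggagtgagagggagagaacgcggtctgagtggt
SNORA73A: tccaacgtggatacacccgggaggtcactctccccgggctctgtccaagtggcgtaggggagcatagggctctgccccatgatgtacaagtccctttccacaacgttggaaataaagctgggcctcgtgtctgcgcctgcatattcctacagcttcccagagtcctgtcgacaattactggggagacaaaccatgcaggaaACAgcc
SNORD14C: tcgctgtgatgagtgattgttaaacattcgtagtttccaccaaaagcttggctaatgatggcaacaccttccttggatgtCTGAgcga
SNORD14D: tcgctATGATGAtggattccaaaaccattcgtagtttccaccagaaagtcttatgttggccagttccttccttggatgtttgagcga
SNORD14E: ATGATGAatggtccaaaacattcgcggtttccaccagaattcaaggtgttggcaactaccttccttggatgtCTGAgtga

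These motifs, and ACAGAG in U6, which pairs with the start of the intron during catalysis, were searched in all copies of each subfamily on both strands, and in the stretch of the same length that ends 1000 bases before each copy. ACTTACCTG was present in 34 of 94 U1 copies (36.2%) and in 1.06% of the stretches before them, and ATTTGTG in 55.3% of U1 copies against 2.13% of the stretches. The U1 copies that hold ACTTACCTG on their own strand carried 98.6% of all U1 counts. GTAGTA was found in 51.0% of U2 copies against 3.92% of the stretches, and the copies with it on their own strand held 99.85% of U2 counts. ATTTTTG was found in 56.9% of U2 copies and 36% of U4 copies, against 7.84% and 8% of their stretches, and ACAGAG, which on the own strand was held by 289 of 491 U6 copies, was on either strand in 61.7% of U6 copies and 14.1% of their stretches. In U6 the copies with an intact ACAGAG held 69.1% of the counts, a smaller share than for the U1, U2 and U4 motifs. Among the 6 U14 copies ATGATGA occurred in 50% and CTGA in 66.7%, against none and 50% of the stretches, and the short ACA occurred in all 6 U17 copies and all 6 stretches. A match is a description of these letters only, and the share of counts at copies with an intact motif is also a share at copies close to the consensus.

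The libraries held 16683132 to 25686948 aligned fragments, of which repeats took between 8.15% and 13.4%, except in Z18truncZnFmut replicate 3, where they took 19.9% and 1414822 elements were listed against 283091 to 697167 elsewhere. That library stands apart, so where leaving it out changes a call or moves a Z18truncZnFmut value by over 1.5 times, both values are given. The 3 libraries of a group are labelled as replicates with no statement that they came from separate cultures, so p-values measure only the spread between these libraries, which may be technical. In the edgeR fits the spread of a feature is moderated with that of all features tested. A very small p from few libraries is therefore not a measure of the spread of that feature alone. Levels are counts per 1000000 aligned fragments (CPM), in which a read that maps to several places is shared among them by the counting tool, and the uniquely mapping counts are given beside them. An aligned fragment counts reads on all of the genome, so CPM does not force the repeats to sum to a constant.

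The snRNA class as a whole was lower with Z18fl and Z18trunc than with Clover. It summed to 1458, 1796 and 1508 CPM in the Clover libraries, to 1067, 835 and 898 CPM with Z18fl, to 1107, 1214 and 1301 CPM with Z18trunc and to 1701, 2161 and 1961 CPM with Z18truncZnFmut. All Z18fl and Z18trunc libraries lay below all Clover libraries, and the Z18truncZnFmut range overlapped that of Clover. The mean difference from Clover was -654 CPM for Z18fl and -380 CPM for Z18trunc, each with p = 0.1 in a two-sided exact permutation test, the smallest p that 3 libraries against 3 allow, and an adjusted p of 0.17. Z18truncZnFmut differed from Clover by 354 CPM (exact permutation p = 0.2, adjusted p = 0.28), from Z18trunc by 734 CPM (exact p = 0.1) and Z18trunc from Z18fl by 274 CPM (exact p = 0.1). These tests belong to a family of 80, in which no adjusted p was below 0.17. Uniquely mapping snRNA counts, 12.2% to 17.2% of the class, were 218 ± 21.8 CPM (SD, n = 3) with Clover, 153 ± 26.3 CPM with Z18fl, 181 ± 18.2 CPM with Z18trunc and 246 ± 30.4 CPM with Z18truncZnFmut.

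Relative to other structured RNAs of similar kind the class was also lower with Z18fl and Z18trunc. The log2 ratio of snRNA counts to the RNA class, which is 7SK, was 1.46 lower with Z18fl than with Clover, 0.95 lower with Z18trunc and 0.85 lower with Z18truncZnFmut, and none of these groups overlapped Clover. The ratio to the scRNA class (Y RNAs and BC200) fell from Clover by 1.07 in Z18fl, by 0.69 in Z18trunc and by 0.36 in Z18truncZnFmut on the log2 scale. The Z18truncZnFmut value was -0.13 without its replicate 3, and its highest library (6.3554) lay just under the lowest Clover library (6.3555), while those of Z18fl and Z18trunc lay clear of Clover. The ratio to tRNA differed by -0.80 and -0.45 in Z18fl and Z18trunc without overlap, and the ratio to all repeats by -1.06 and -0.79. Against the 7SL class the difference was -0.38 without overlap in Z18fl and -0.31 with overlap in Z18trunc. All of these differences had the exact p = 0.1 except the last, at p = 0.3, and adjusted values of 0.17 or more. With Z18truncZnFmut the ratios to tRNA, to all repeats and to 7SL differed from Clover by -0.13, -0.45 and -0.43. In these 3 the groups overlapped (exact permutation p = 0.6, 0.2 and 0.4). Mean 7SK was 5067 CPM with Clover, 8186 with Z18fl, 7441 with Z18trunc and 11231 with Z18truncZnFmut, so the ratio to 7SK also moves with 7SK.

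Within the class the counts were concentrated in few subfamilies. U17 held 30.6% of all snRNA counts over the 12 libraries, U1 29.8%, U2 20%, U3 11.9% and U4 6.51%, and the other subfamilies held under 1% each, with U6 at 0.503%. Per kilobase, using the count-weighted mean length of each subfamily, the Clover level was 3429 ± 661 CPM per kb for U1 (SD, n = 3), 2535 ± 192 for U17, 1102 ± 227 for U3, 921 ± 68.3 for U2 and 577 ± 58.0 for U4. U6 followed at 40.8 ± 11.5 CPM per kb, and U13_, U8, U13, U5 and U14 lay between 7.69 and 18.7 CPM per kb. In this order U3 and U2 lay within one another's spread, as did neighbours among the scarce subfamilies, while U1 to U4 were separated from U6 by far more than their SD. The major spliceosomal subfamilies made up 51.8 ± 2.84% of snRNA counts with Clover, 57.1 ± 3.36% with Z18fl, 57.3 ± 3.69% with Z18trunc and 59.4 ± 4.59% with Z18truncZnFmut. That share did not overlap Clover in Z18fl and Z18truncZnFmut (exact permutation p = 0.1 each) and overlapped it in Z18trunc (exact p = 0.3).

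Few of the 994 copies carried the counts, and 519 of them were listed in a single library. Of all copies 40 reached a mean of 10 counts a library, of which 19 were U1 and 6 were U3. Copies covered to at least 80% by an annotated snRNA or snoRNA gene on the same strand held 99.4 ± 0.42% of snRNA counts with Clover, 96.9 ± 2.78% with Z18fl and 98.1 ± 1.19% with Z18trunc, with overlapping groups. Of the counts, 99.0% to 99.6% were read on the strand of the copy. By position 400 copies lay in introns of genes on their own strand, 263 in introns of genes on the other strand, 253 between genes and 51 in exons of their strand. The count-weighted divergence from the consensus was 1.06% with Clover, 1.31% with Z18fl, 1.21% with Z18trunc and 1.04% with Z18truncZnFmut, and the Z18fl and Z18trunc libraries lay above those of Clover without overlap (exact permutation p = 0.1 each, adjusted p = 0.17).

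Z18fl was set against Clover for RNA recovered with the full-length protein beyond the control. Of 11 snRNA subfamilies tested, U1, U3 and U17 fell and U2, U6 and U14 rose, and U4, U5, U8, U13 and U13_ did not pass an adjusted p of 0.05. In all repeat subfamilies together 61.9% were higher and 3.90% lower on this scale, and their median log2 fold change was 0.45 against 0.22 for the snRNA subfamilies. The same fit scaled by TMM, which sets the middle of all repeat subfamilies near no change, called U14 and U6 higher and U1, U3, U17, U4 and U8 lower, with 18.3% and 18.1% of all subfamilies called higher and lower. Thus the fall of U1, U3 and U17 and the rise of U14 and U6 were called on both scales, and U2 changed sign, from 0.39 per aligned fragment to -0.06 with TMM. For the truncated protein, Z18trunc was set against Clover, and U1, U3 and U17 fell and U2, U6 and U14 rose as well, where 54.0% of all repeat subfamilies were higher and 1.36% lower, with a median of 0.48 over all subfamilies and 0.32 over the snRNA subfamilies. With TMM U1, U3, U17 and U4 were lower and U2 and U14 higher, with 12.4% of all subfamilies called higher and 11.9% lower, and U6 was not called (log2 fold change 0.15, adjusted p = 0.62). Both comparisons use the same 3 Clover libraries. U7 had too few counts to be tested. In a fit with all 12 libraries, where 2.36% of all subfamilies were higher and 0.566% lower with Z18fl and 4.15% and 0.189% with Z18trunc, the calls of U2 and U6 with Z18fl (adjusted p = 0.364 and 0.215) and of U3, U6 and U17 with Z18trunc (adjusted p = 0.321, 0.362 and 0.0645) were lost.

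**Figure D1:**
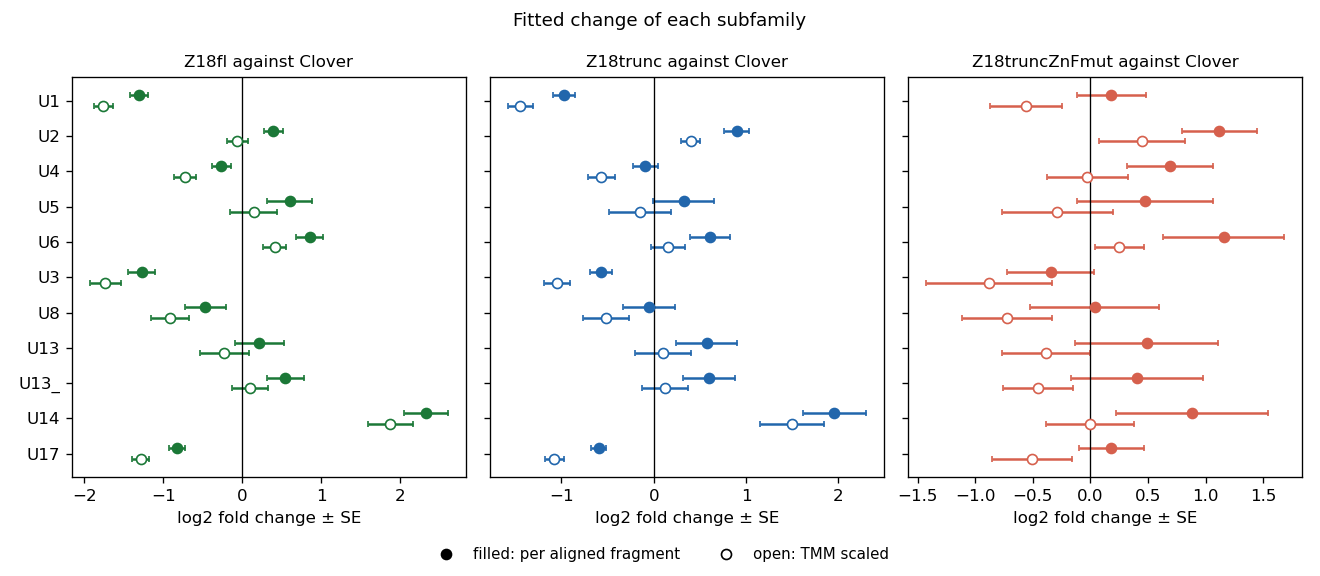
Log2 fold change ± SE of each tested snRNA subfamily against Clover from edgeR, per aligned fragment (filled) and TMM scaled (open), with 3 libraries a group. U1, U3 and U17 lie left of 0 on both scales for Z18fl and Z18trunc and U14 lies right of it, while U2 with Z18fl sits at 0.39 on one scale and -0.06 on the other.

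U1, which defines the start of introns, fell with both forms. The Clover libraries held 542, 679 and 465 CPM, the Z18fl libraries 243, 227 and 213 CPM, the Z18trunc libraries 263, 316 and 278 CPM and the Z18truncZnFmut libraries 515, 666 and 732 CPM. Both Z18fl and Z18trunc lay wholly below Clover and wholly below Z18truncZnFmut, and Clover overlapped Z18truncZnFmut. Against Clover the log2 fold change was -1.30 ± 0.12 (SE) with Z18fl (edgeR, adjusted p = 5.3e-07) and -0.98 ± 0.12 with Z18trunc (adjusted p = 1.2e-05), that is 2.47-fold and 1.97-fold lower. Of U1 counts 1.10% to 7.08% mapped uniquely, and on those alone the direction turned, to 0.85 with Z18fl (adjusted p = 1.0e-05) and to 1.07 with Z18trunc (adjusted p = 7.5e-06). The fall of U1 thus rests on reads shared among near-identical copies.

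U2, which binds the branch point, moved the other way per aligned fragment. It stood at 158, 183 and 176 CPM with Clover, at 276, 212 and 191 CPM with Z18fl, at 253, 310 and 403 CPM with Z18trunc and at 309, 456 and 357 CPM with Z18truncZnFmut. All ZC3H18 libraries lay above all Clover libraries. The log2 fold change was 0.39 ± 0.12 with Z18fl (edgeR, adjusted p = 0.011), 0.90 ± 0.13 with Z18trunc (adjusted p = 8.8e-05) and 1.12 ± 0.33 with Z18truncZnFmut (adjusted p = 0.12). Without Z18fl replicate 1 the Z18fl value was 0.22 and was no longer called, nor was it without Clover replicate 1, at 0.33, or in the fit with all 12 libraries. Without Z18truncZnFmut replicate 3 the last value was 1.15 with an adjusted p of 1.6e-23. That fit holds only the Z18truncZnFmut libraries at 309 and 456 CPM and draws on the spread of all subfamilies. The size of this p is therefore not a measure of the spread between these libraries. Uniquely mapping U2 counts gave 0.54 with Z18fl (adjusted p = 0.016) and 0.96 with Z18trunc (adjusted p = 0.0022). Most of these came from RNU2-2P, with 39, 50 and 59 of the 42, 53 and 64 unique U2 counts in the Clover libraries. The unique values therefore do not speak for the main U2 copies. RNU2-2P lies in an exon of WDR74 on the same strand, so reads of that host cannot be told apart from it. The ratio of U1 to U2 counts needs no library size, and its log2 was 1.78, 1.89 and 1.40 in the Clover libraries, -0.18, 0.10 and 0.16 with Z18fl, 0.06, 0.03 and -0.53 with Z18trunc and 0.74, 0.55 and 1.04 with Z18truncZnFmut. It was lower than in every Clover library in all 9 ZC3H18 libraries, and the Z18truncZnFmut libraries lay above those of Z18fl and Z18trunc. The differences in the log2 ratio were -1.67, -1.84 and -0.92 from Clover and 0.92 between Z18truncZnFmut and Z18trunc, each with the exact permutation p = 0.1 and an adjusted p of 0.17. This ratio was added after the values were seen, and on uniquely mapping counts alone its difference from Clover was 0.30 with Z18fl and 0.20 with Z18trunc.

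U4, the partner that holds U6, was not called per aligned fragment with any form. It stood at 73.9, 90.3 and 84.9 CPM with Clover, 81.8, 56.5 and 69.2 CPM with Z18fl, 63.4, 95.5 and 74.9 CPM with Z18trunc and 94.0, 167 and 141 CPM with Z18truncZnFmut. Only the Z18truncZnFmut libraries lay apart from those of Clover. The log2 fold change from Clover was -0.26 ± 0.12 with Z18fl (edgeR, adjusted p = 0.073), -0.09 ± 0.14 with Z18trunc (adjusted p = 0.57) and 0.69 ± 0.37 with Z18truncZnFmut (adjusted p = 0.16). With TMM the first 2 were called, at -0.72 (adjusted p = 0.0012) and -0.57 (adjusted p = 0.0075). DESeq2 called the Z18fl value, at -0.73 (adjusted p = 0.0023), and not the Z18trunc value, at -0.57 (adjusted p = 0.072). On uniquely mapping counts the Z18fl value was -0.35 and called (adjusted p = 0.019), and the Z18trunc value was -0.16 (adjusted p = 0.44). Per aligned fragment the Z18fl value was also called without Clover replicate 1, at -0.34, and without Z18fl replicate 1, at -0.40. RNU4-1 held 82.6% of U4 counts and 34.2% of its counts mapped uniquely, a far larger share than for U1 or U2.

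U17 had more uniquely mapping counts than any other subfamily, 1702 to 4035 a library. Its level was 474, 539 and 544 CPM with Clover, 325, 250 and 302 CPM with Z18fl, 341, 323 and 365 CPM with Z18trunc and 535, 636 and 593 CPM with Z18truncZnFmut. Z18fl and Z18trunc lay below Clover and Z18truncZnFmut without overlap. The log2 fold change was -0.83 ± 0.10 with Z18fl (edgeR, adjusted p = 6.6e-06) and -0.60 ± 0.09 with Z18trunc (adjusted p = 5.8e-05). On uniquely mapping counts, 25.9% to 36.5% of U17, the values were -0.80 (adjusted p = 2.1e-07) and -0.60 (adjusted p = 0.00034), close to those from all counts. The Z18trunc call was lost in the fit with all 12 libraries. Nearly all U17 counts came from SNORA73A and SNORA73B, both in RCC1 introns, which held 99.99% of them between them. SNORA73A stood at 261, 292 and 319 CPM with Clover, 187, 142 and 186 CPM with Z18fl, 204, 178 and 209 CPM with Z18trunc and 296, 375.03 and 324 CPM with Z18truncZnFmut. It was lower than every Clover library in all 6 libraries of the first 2 ZC3H18 forms, with a log2 fold change of -0.76 (edgeR, adjusted p = 0.00039) and -0.56 (adjusted p = 0.0034).

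U3, which guides early cleavage of the ribosomal RNA precursor, was lower with both forms. It stood at 197, 293 and 226 CPM with Clover, 123, 70.2 and 104 CPM with Z18fl, 168, 152 and 163 CPM with Z18trunc and 233, 221 and 111 CPM with Z18truncZnFmut. Z18fl and Z18trunc did not overlap Clover, and Z18truncZnFmut spanned from below to within the Clover range. The log2 fold change was -1.27 ± 0.17 with Z18fl (edgeR, adjusted p = 1.9e-05) and -0.57 ± 0.12 with Z18trunc (adjusted p = 0.0017). Of U3 counts 1.20% to 11.4% mapped uniquely, and on those alone the Z18fl value was -0.40 and not called (adjusted p = 0.13), while the Z18trunc value turned to 0.96 (adjusted p = 0.0016). The Z18trunc call was also lost in the fit with all 12 libraries.

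**Figure D2:**
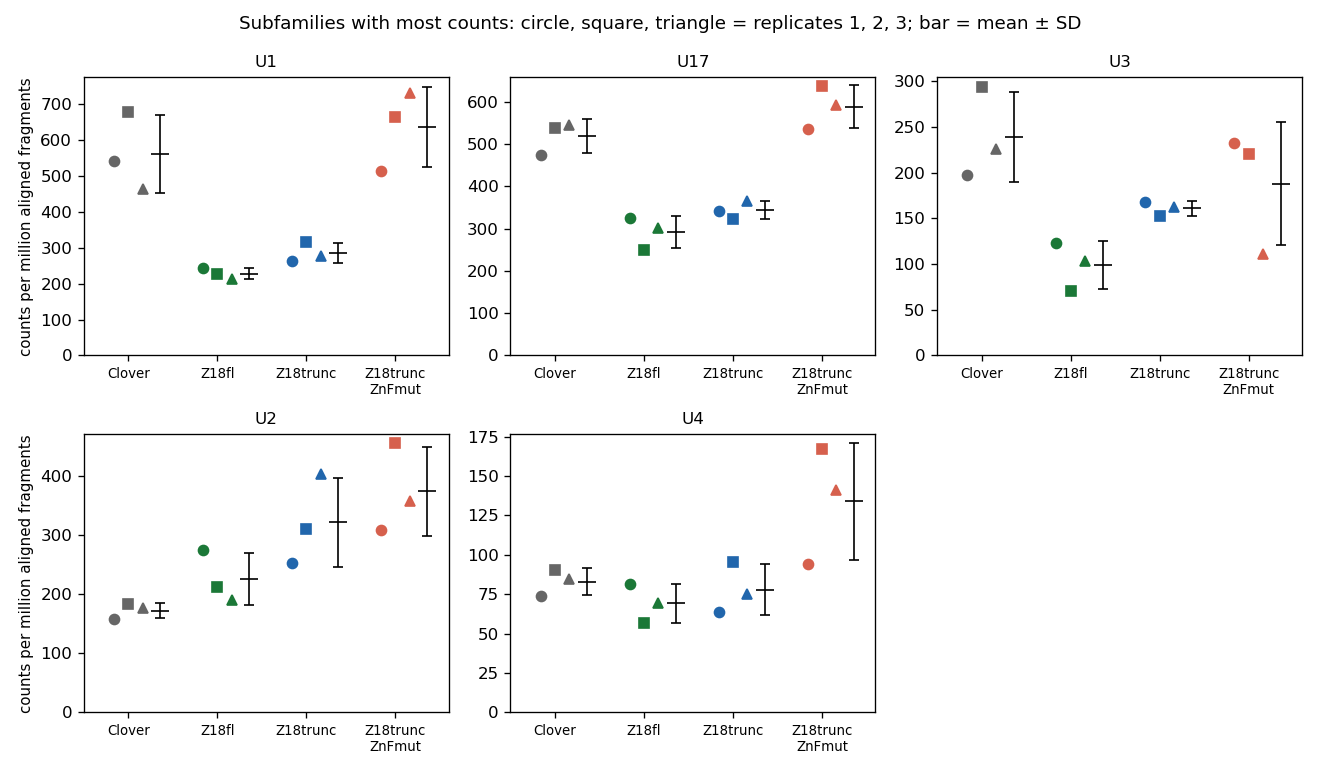
Level of the 5 subfamilies with most counts in each library, in CPM, with replicates 1, 2 and 3 as circle, square and triangle and the mean ± SD beside them. For U1 and U17 the Z18fl and Z18trunc libraries lie below Clover and Z18truncZnFmut, and for U2 all ZC3H18 libraries lie above Clover.

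Of the scarce subfamilies U14 rose most. This box C/D RNA stood at 0.48, 0.94 and 0.57 CPM with Clover, at 3.37, 3.09 and 3.54 CPM with Z18fl, at 3.07, 2.40 and 2.28 CPM with Z18trunc and at 1.03, 0.89 and 1.73 CPM with Z18truncZnFmut. Z18fl and Z18trunc lay above every other library. The log2 fold change from Clover was 2.33 ± 0.28 with Z18fl (edgeR, adjusted p = 5.9e-06), 1.96 ± 0.34 with Z18trunc (adjusted p = 0.00041) and 0.88 ± 0.66 with Z18truncZnFmut (adjusted p = 0.27, and 0.54 without its replicate 3), and the first 2 were 5.02-fold and 3.88-fold higher. Uniquely mapping counts, 50% to 80% of U14, gave 2.66 (adjusted p = 3.3e-08) and 2.09 (adjusted p = 0.00021). All counts lay on the strand of the copies. SNORD14C, within HSPA8, held 34.1% of them, the most of any copy, and stood at 0, 0.23 and 0.34 CPM with Clover, at 0.99, 0.92 and 1.75 CPM with Z18fl, at 0.88, 0.74 and 0.63 CPM with Z18trunc and at 0.25, 0.38 and 0.79 CPM with Z18truncZnFmut. Both Z18fl and Z18trunc lay above Clover without overlap, with log2 fold changes of 2.62 (edgeR, adjusted p = 0.0023) and 1.93 (adjusted p = 0.025), the latter not called with TMM (adjusted p = 0.0514) or DESeq2 (adjusted p = 0.10). SNORD14D and SNORD14E, chosen after their values were seen, rose with Z18trunc by 2.82 (adjusted p = 0.0051) and 2.36 (adjusted p = 0.0079). With Z18fl SNORD14E gave 2.33 (edgeR, adjusted p = 0.0029) and SNORD14D did not pass the filter. The Clover counts were 0, 4 and 6 for SNORD14C, 1, 4 and 0 for SNORD14D and 2, 5 and 1 for SNORD14E. These copies thus passed the filter through the group where they are high and are no separate support for the U14 rise. The summed U14 counts with Clover, 8, 16 and 10, were themselves near the minimum count of 10, so the same limit bears on the U14 rise. The 3 genes share 69.7% to 77.8% of their bases, and 60.2%, 77.3% and 63.8% of the counts of SNORD14C, SNORD14D and SNORD14E mapped uniquely. SNORD14C and SNORD14D overlap annotated exons of HSPA8 and SNORD14E lies in its intron, all on the same strand, so reads of the host and of the small RNA cannot be told apart.

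U6, the catalytic partner of U2, was low for an RNA of the same particle as U2 and U4. It stood at 5.51, 3.57 and 3.39 CPM with Clover, at 7.47, 7.06 and 7.98 CPM with Z18fl, at 6.46, 6.4 and 6.12 CPM with Z18trunc and at 6.87, 6.30 and 14.6 CPM with Z18truncZnFmut, where the highest value is the library that stands apart. All ZC3H18 libraries lay above Clover. The log2 fold change was 0.86 ± 0.17 with Z18fl (edgeR, adjusted p = 0.00056), 0.61 ± 0.21 with Z18trunc (adjusted p = 0.027) and 1.16 ± 0.53 with Z18truncZnFmut (adjusted p = 0.14). The Z18fl value is 1.81-fold and was not called by DESeq2 (0.41, adjusted p = 0.066). Neither U6 call was kept in the fit with all 12 libraries, and DESeq2 gave 0.15 with Z18trunc (adjusted p = 0.69). The Z18trunc call was lost without Clover replicate 2, at 0.51, without Clover replicate 3, at 0.48, and without Z18trunc replicate 2, at 0.60. The counts were spread over many copies, the highest of which held 6.82%, and the canonical U6 genes held 2.26% to 13.8%. Copies in introns of genes on their own strand held 49.3% of U6 counts, copies in introns of the other strand 19.0% and copies between genes 22.8%. Of U6 counts 61.3% to 82.7% lay on the strand of the copy, against 98.6% to 99.8% for U1. The highest copy, RNU6-48P in TMEM222, stood at 0.19, 0.06 and 0.40 CPM with Clover and at 1.30, 0.54 and 0.80 CPM with Z18fl without overlap (log2 fold change 2.01, edgeR adjusted p = 0.010), and lay between 0.27 and 0.39 CPM with Z18trunc. Of its counts 83.5% mapped uniquely. Its Clover counts were 3.19, 1 and 7, so it passed the filter through the group where it is high and is no separate support for the U6 rise.

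U5, which aligns the exons, had a Clover mean of 1.41 ± 0.45 CPM (SD, n = 3), a Z18fl mean of 2.16 ± 0.38 CPM and a Z18trunc mean of 1.76 ± 0.31 CPM, with log2 fold changes of 0.60 (edgeR, adjusted p = 0.071) and 0.32 (adjusted p = 0.40). Its highest copy, RNU5A-1, ranged from 0.24 to 1.04 CPM over the 12 libraries. U8, needed for the large ribosomal RNAs, came almost wholly from SNORD118, which held 97.3% of it and ranged from 1.21 to 2.19 CPM. Its log2 fold changes were -0.46 (adjusted p = 0.12) and -0.05 (adjusted p = 0.87). U13 gave 0.22 (adjusted p = 0.54) and 0.57 (adjusted p = 0.145), and U13_ gave 0.55 (adjusted p = 0.052) and 0.60 (adjusted p = 0.079). U13_ counts lay on both strands, with 25.5% to 62.9% on that of the copy. The highest U13_ copy, on chrX at 48561700 to 48561802 opposite an exon of TBC1D25, had 2 to 19 counts a library. U7 had 27 counts over all 12 libraries and reached at most 0.23 CPM.

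**Figure D3:**
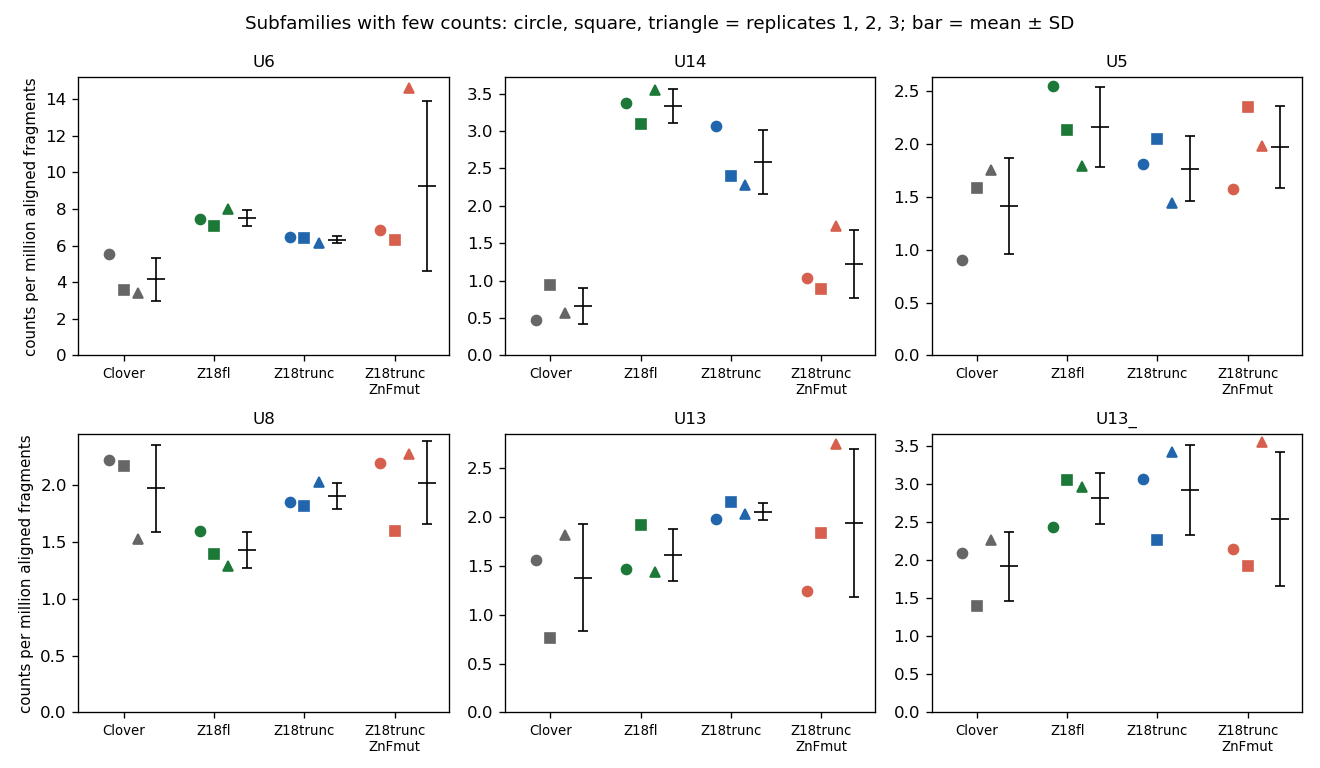
Level of the 6 tested subfamilies with few counts in each library, in CPM, with replicates 1, 2 and 3 as circle, square and triangle and the mean ± SD beside them. U14 stands at 2.28 to 3.54 with Z18fl and Z18trunc and at 0.48 to 1.73 elsewhere, and U6 has its highest value, 14.6, in Z18truncZnFmut replicate 3.

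The U1 counts rest on copies that reads cannot tell apart. In U1 9 copies have the same 164 bases, among them RNU1-1, RNU1-2, RNU1-3, RNU1-4, RNU1-27P, RNU1-28P, RNVU1-18 and RNVU1-29 and a copy on an unplaced contig. A read that lies within these bases fits all of them equally, and 683 of the 83815 counts of the group mapped uniquely. The copy given most of the group's counts was a different one from library to library: RNU1-2 took 60.7% and 92.6% in Clover replicates 1 and 3 and RNVU1-29 took 76.2% in Clover replicate 2. RNVU1-18 took 51.6% in Z18fl replicate 1 and 75.6% in Z18truncZnFmut replicate 2, and RNU1-1 took 60.8% in Z18trunc replicate 1. Over all libraries, 5 different copies led in at least 1 library, with shares from 36.2% to 92.6%. The single-copy fit called RNVU1-18 higher with Z18fl (log2 fold change 5.12, edgeR adjusted p = 0.00096, and 2.65 without Z18fl replicate 1), RNU1-27P higher with Z18trunc (5.76, adjusted p = 9.7e-07) and with Z18truncZnFmut (7.16, adjusted p = 2.3e-07), and RNU1-2 lower with Z18trunc (-5.99, adjusted p = 2.2e-05). It also called RNU1-3 lower with Z18truncZnFmut (-1.80, adjusted p = 0.0065), a call lost without Clover replicate 1 (-1.16, adjusted p = 0.096). RNVU1-7 (0.6% diverged), chosen after its values were seen, was called lower with Z18fl (-3.70, adjusted p = 0.0010), Z18trunc (-3.34, adjusted p = 0.0038) and Z18truncZnFmut (-3.63, adjusted p = 0.00091), although the libraries of each overlapped those of Clover. The summed level of the identical copies was 192 to 494 CPM with Clover, 171 to 194 CPM with Z18fl, 220 to 231 CPM with Z18trunc and 466 to 656 CPM with Z18truncZnFmut, so Clover overlapped every other group. Since RNVU1-18, RNU1-27P, RNU1-2 and RNU1-3 have 1 sequence, the calls describe how reads were shared out and not levels of separate RNAs.

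**Figure D4:**
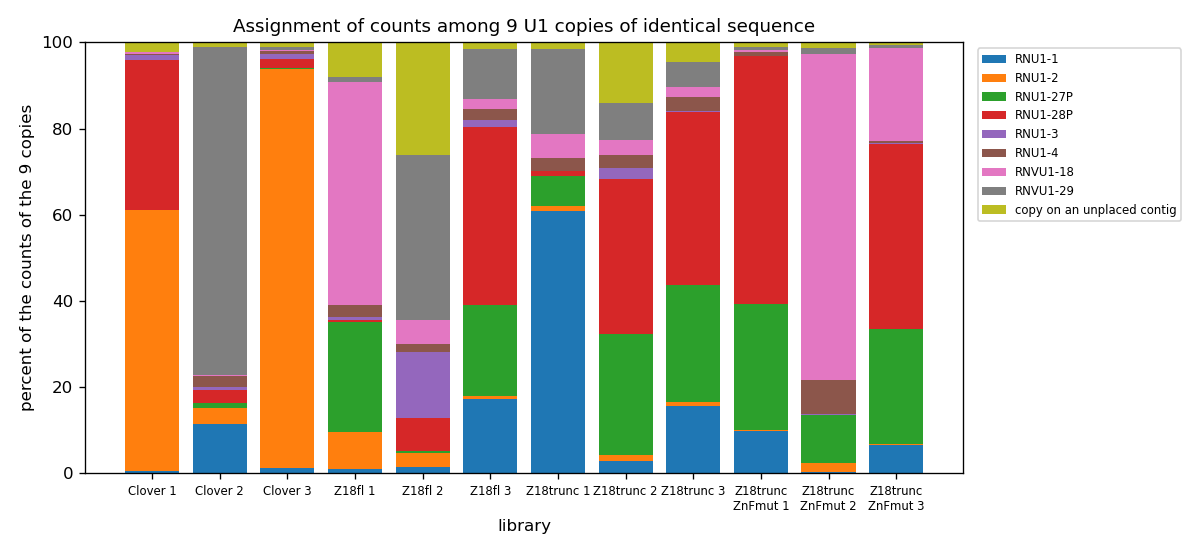
Percent of the summed counts of 9 U1 copies of identical sequence that each copy was assigned, in each of the 12 libraries as stacked bars. The leading copy changes within groups, from RNU1-2 with 60.7% in Clover replicate 1 to RNVU1-29 with 76.2% in Clover replicate 2.

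As sums, U1 split into opposite movements. The 12 copies within 2% of the consensus summed to 535, 673 and 459 CPM with Clover, to 228, 215 and 200.5 CPM with Z18fl, to 247, 301 and 262 CPM with Z18trunc and to 508, 655 and 716 CPM with Z18truncZnFmut. The 82 more diverged copies summed to 6.30, 5.97 and 6.79 CPM with Clover, 14.8, 12.2 and 12.4 CPM with Z18fl, 15.9, 14.8 and 16.3 CPM with Z18trunc and 7.61, 11.2 and 15.9 CPM with Z18truncZnFmut. The near-consensus copies were lower and the diverged copies higher than Clover in all 6 libraries of Z18fl and Z18trunc. The differences from Clover were -341 and -286 CPM for the first and 6.80 and 9.32 CPM for the second, each with the exact permutation p = 0.1 and an adjusted p of 0.17. Z18truncZnFmut lay 356 CPM above Z18trunc in the near-consensus copies without overlap (exact p = 0.1) and 4.10 CPM below it in the diverged copies with overlap (exact p = 0.2), or 6.25 CPM below it without Z18truncZnFmut replicate 3. Uniquely mapping reads made up 1.36% of the near-consensus counts and 68.1% of the diverged. The unique near-consensus reads themselves were 4.21 ± 0.71 CPM with Clover, 5.43 ± 1.30 CPM with Z18fl, 6.4 ± 0.71 CPM with Z18trunc and 5.53 ± 1.54 CPM with Z18truncZnFmut, and were not lower with Z18fl or Z18trunc as the shared reads were. The cause of that difference was not tested. The split was chosen after the values were seen.

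**Figure D5:**
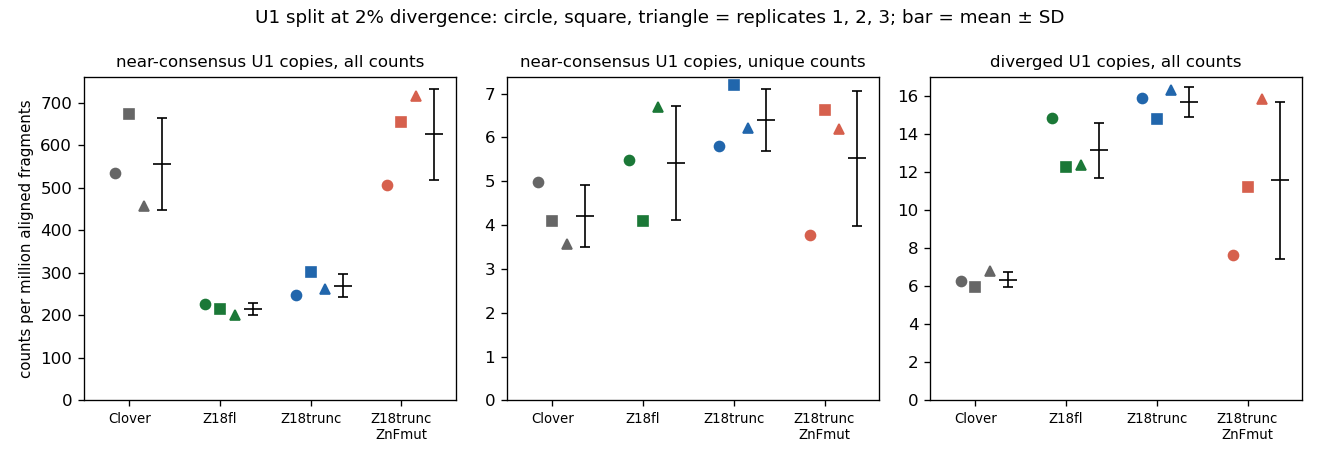
U1 CPM in each library for copies within 2% of the consensus (all counts and uniquely mapping counts) and for more diverged copies (all counts), with replicates 1, 2 and 3 as circle, square and triangle and the mean ± SD beside them. All counts of near-consensus copies fall from 459 to 673 with Clover to 200.5 to 301 with Z18fl and Z18trunc, while the diverged copies rise from 5.97 to 6.79 to 12.2 to 16.3.

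Of the U1 copies more than 2% diverged and with over 50% unique reads, a group chosen after the values were seen, 6 were tested with Z18fl, of which 4 were called higher and 0 lower, and 8 with Z18trunc, of which 5 were called higher and 0 lower. Of all repeat elements tested 31.8% and 24.2% were called higher in these comparisons, and 12.7% and 3.40% lower. RNVU1-19, RNVU1-6, RNVU1-15 and RNVU1-34 had 4 to 17 counts in the Clover libraries. A copy that is low in Clover passes the filter through the other group, so the 0 lower is no result about these copies. The 4 called with Z18fl, namely RNVU1-14, RNVU1-19, RNVU1-6 and RNVU1-15, lay above Clover in every Z18fl and Z18trunc library. RNVU1-14 stood at 1.92, 1.05 and 1.08 CPM with Clover, at 3.50, 3.05 and 2.45 CPM with Z18fl and at 3.74, 3.47 and 3.50 CPM with Z18trunc without overlap, with log2 fold changes of 1.15 (edgeR, adjusted p = 0.0030) and 1.41 (adjusted p = 0.00043). RNVU1-19 rose by 1.45 (adjusted p = 0.0055) and 1.80 (adjusted p = 0.0014). RNVU1-6 rose by 1.11 (adjusted p = 0.031) and 1.37 (adjusted p = 0.0093). RNVU1-15 rose with Z18fl by 1.14 (adjusted p = 0.038) and gave 1.12 with Z18trunc (adjusted p = 0.062). RNVU1-34, which was tested with Z18trunc and not with Z18fl, rose by 1.40 (adjusted p = 0.013). RNVU1-2A (7.3% diverged) gave -0.03 (adjusted p = 0.96) and 0.16 (adjusted p = 0.83) with groups that overlapped, and RNVU1-27 (7.9% diverged) gave 0.73 (adjusted p = 0.21) and 0.77 (adjusted p = 0.31). Like RNU1-2, RNVU1-14 keeps both capitalised motifs shown above. RNVU1-14, RNVU1-19 and RNVU1-6 overlap annotated exons of genes on their own strand, and RNVU1-34 lies in an intron of TEX14 on the same strand. Reads of these host genes and of the U1 copies cannot be told apart, which also holds for the other TEX14 copy named next. RNVU1-15 lies between genes. By the rule for named copies, a U1 copy in an intron of TEX14 (chr17:58659153-58659296, 20.1% diverged) rose most with Z18trunc among U1 copies with a sequence of their own, from 0.06 to 0.24 CPM with Clover to 0.80 to 1.22 CPM (log2 fold change 3.06, adjusted p = 0.00059). Its Clover counts were 4, 1 and 1, so it passed the filter through the group where it is high, and its rank is no separate support for a rise. By the same rule RNVU1-28 (0.6% diverged, 3.12% unique) fell with Z18fl by 1.17 (adjusted p = 0.00030) and with Z18trunc by 0.92 (adjusted p = 0.0023).

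For single copies of all subfamilies, 36 of the 994 passed the filter on low counts in the comparison of Z18fl with Clover, and 13 were higher and 9 lower, where 31.8% and 12.7% of all repeat elements tested were. With Z18trunc 38 copies were tested, 16 higher and 7 lower, against 24.2% and 3.40% of all elements. With Z18truncZnFmut 34 copies were tested, 7 higher and 3 lower, against 11.6% and 0.734%. A copy listed only where it is high passes the filter through that group, so these counts do not speak for the 994. Counting unique reads alone, 15 copies were tested with Z18fl, 6 of them higher and 4 lower, against 34.4% and 12.1% of all elements. With Z18trunc 20 were tested, 10 higher and 2 lower, against 25.1% and 3.64%, and with Z18truncZnFmut 14, of which 2 were higher and 0 lower, against 11% and 1.43%.

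Among U2 and U3 copies the same limits on unique reads held. The highest U2 copy, in CCDC200, stood at 105, 38.2 and 8.27 CPM with Clover, 127, 117 and 147 CPM with Z18fl, 210, 247 and 160 CPM with Z18trunc and 249, 173 and 110 CPM with Z18truncZnFmut. All ZC3H18 libraries lay above Clover, with log2 fold changes of 1.37 (edgeR, adjusted p = 0.043), 2.03 (adjusted p = 0.0050) and 1.81 (adjusted p = 0.025), and 0.66 for Z18trunc against Z18fl (adjusted p = 0.027). The fold rests on the spread among Clover libraries, and without Clover replicate 1 the values were 2.49, 3.15 and 2.93. The Z18fl call was lost with TMM (1.11, adjusted p = 0.078), without Clover replicate 2 and without any 1 of the 3 Z18fl libraries, and the Z18truncZnFmut call without Clover replicate 2 or Z18truncZnFmut replicate 1 or 2. DESeq2 called none of the 3 values against Clover, and 0.00511% of the counts mapped uniquely. A second U2 copy in CCDC200 (chr17:43290295-43290481, 0.5% diverged), chosen after its values were seen, had 0% unique counts. It stood at 40.0, 120 and 117 CPM with Clover. Its log2 fold changes were -0.40, -0.34 and 0.77 (edgeR, adjusted p = 0.49, 0.71 and 0.36), with overlap in each. How reads were shared between these 2 copies was not tested, so the fold of the highest copy alone is not a level of U2. RNU2-2P, of which 14.4% mapped uniquely and which was chosen after its values were seen, stood at 12.7, 18.2 and 17.8 CPM with Clover, 30.7, 21.8 and 20.6 CPM with Z18fl, 26.7, 30.8 and 67.0 CPM with Z18trunc and 28.8, 47.3 and 39.7 CPM with Z18truncZnFmut. It was above every Clover library in all 9, with log2 fold changes of 0.58 (adjusted p = 0.023), 1.35 (adjusted p = 0.00085) and 1.25 (adjusted p = 0.0013). Reads of WDR74, in whose exon RNU2-2P lies on the same strand, cannot be told apart from those of RNU2-2P. Among U3 genes SNORD3A fell by 1.37 with Z18fl (adjusted p = 7.2e-05) and by 0.84 with Z18trunc (adjusted p = 0.0013), and SNORD3B-2 by 1.58 (adjusted p = 0.00021) and 0.63 (adjusted p = 0.0069). On uniquely mapping counts SNORD3A gave -0.12 (adjusted p = 0.74) and 0.48 (adjusted p = 0.31), and SNORD3B-2 gave -1.38 (adjusted p = 0.0059) and, turned in sign, 1.07 (adjusted p = 0.044). SNORD3D, 3 bases from SNORD3A, stood at 0.64, 1.13 and 0 CPM with Clover, at 7.25, 3.83 and 3.50 CPM with Z18fl, at 12.6, 9.64 and 8.73 CPM with Z18trunc and at 20.1, 3.09 and 1.67 CPM with Z18truncZnFmut. All 9 ZC3H18 libraries lay above Clover, and the log2 fold changes were 3.04 (adjusted p = 0.00029), 4.13 (adjusted p = 1.1e-06) and 3.81 (adjusted p = 0.0018), with 4.97% of its counts unique. DESeq2 called it with Z18trunc and neither with Z18fl (adjusted p = 0.068) nor with Z18truncZnFmut (adjusted p = 0.17). Without Z18truncZnFmut replicate 1, the library at 20.1 CPM, the last value was 2.002 and was no longer called (adjusted p = 0.0502). SNORD3D lies in an exon of another annotated gene on its own strand, so reads of that host cannot be told apart from it. Its Clover counts were 10.6, 19.3 and 0, so it passed the filter through the groups where it is high. SNORD3D and SNORD3B-2 were also higher with Z18trunc than with Z18fl, by 1.09 (adjusted p = 0.019) and 0.95 (adjusted p = 0.030), and DESeq2 called neither (adjusted p = 0.069 and 0.098).

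The canonical genes of the class held 88.5%, 90.5% and 90.3% of snRNA counts with Clover, 73.9%, 69.8% and 78.9% with Z18fl, 77.7%, 73.0% and 72.1% with Z18trunc and 82.5%, 80.1% and 82.2% with Z18truncZnFmut. Every ZC3H18 library lay below Clover, and those of Z18truncZnFmut lay above those of Z18fl and Z18trunc. The mean difference from Clover was -15.6, -15.5 and -8.20 percentage points, and 7.31 points between Z18truncZnFmut and Z18trunc, each with the exact permutation p = 0.1 and an adjusted p of 0.17. The main U2 copies in CCDC200 are annotated only as U2 and are outside this list, which was a measure added after the values were seen. Mean U2 was 172 CPM of 1587 in the class with Clover and 226 of 933 with Z18fl. It was 322 of 1207 with Z18trunc and 374 of 1941 with Z18truncZnFmut. The listed genes held on average 14.5%, 10.7%, 12.4% and 10.3% of U2 counts, and 98.8%, 89.4%, 93.8% and 98.8% of U1 counts. The measure thus falls when U2 takes a larger share, and does not by itself show a move to diverged copies.

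Z18truncZnFmut was set against Clover for what the truncated form recovers once its zinc finger is altered. No snRNA subfamily was called, as was none (0%) of the 1027 repeat subfamilies tested, while at an unadjusted p of 0.05 edgeR gave 352 higher (34.3%) and 0 lower, 2 of them snRNA (U2 and U6). The U1 log2 fold change was 0.18 ± 0.30 (edgeR, adjusted p = 0.59), U17 gave 0.18 (adjusted p = 0.57) and U3 gave -0.35 (adjusted p = 0.43), while TMM likewise called no snRNA subfamily, nor did DESeq2, which called 4.58% of all subfamilies higher and 1.17% lower. Without Z18truncZnFmut replicate 3 the U1 value was 0.071 and the U3 value -0.076. In that fit U2, U4 and U6 were called higher, where 34% of all subfamilies were higher and 0.393% lower, with U4 at 0.65 (adjusted p = 7.3e-07) and U6 at 0.67 (adjusted p = 0.014). These adjusted p-values draw on the spread of all subfamilies, and their size is not a measure of the spread between the few libraries left.

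The comparison of Z18truncZnFmut with Z18trunc is the direct test of the zinc finger change. No snRNA subfamily passed, and none (0%) of the 1049 subfamilies tested did, with 10 higher (0.953%) and 0 lower at an unadjusted p of 0.05, of which 2 were snRNA (U1 and U17). U1 lay 2.23-fold higher, with a log2 fold change of 1.16 ± 0.30 (edgeR, adjusted p = 0.70), and U17 1.71-fold higher at 0.78 ± 0.29 (adjusted p = 0.70). U14 gave -1.08 ± 0.56 (adjusted p = 0.70) and U2 0.22 (adjusted p = 0.73), and U3 gave 0.23. In U1, U17 and U14 the 2 groups did not overlap. Without Z18truncZnFmut replicate 3 the values were 1.05 for U1 (adjusted p = 0.0011), 0.77 for U17 (adjusted p = 0.0019), -1.41 for U14 (adjusted p = 0.036) and 0.49 for U3 (adjusted p = 0.019), all called, where 0.572% of all subfamilies were higher and 2.48% lower. DESeq2 on all libraries called U14 alone, at -1.47 (adjusted p = 0.037), which was also the only one of all subfamilies (0.0953%). Of single copies 40 were tested, and 2 were higher and 1 lower against 0.108% and 0.194% of all elements. These were RNVU1-18 (log2 fold change 4.52, adjusted p = 0.026), RNVU1-28 (1.07, adjusted p = 0.040) and RNVU1-29 (-2.22, adjusted p = 0.0057), and with the replicate number as a block only RNVU1-29 remained called (adjusted p = 0.010). The RNVU1-28 call was also lost without any 1 of the Z18trunc libraries and without Z18truncZnFmut replicate 2 or 3 (0.91 without the last), and DESeq2 did not call RNVU1-29 (adjusted p = 0.078). RNVU1-18 and RNVU1-29 have the same sequence.

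Z18trunc against Z18fl addresses the truncation itself. No snRNA subfamily was called, where 0.575% of all subfamilies were higher and 0.288% lower, and at an unadjusted p of 0.05 U1, U2 and U3 were higher, as were 9.97% of all subfamilies, with 3.45% lower. U3 had the largest value, 0.70 ± 0.17 (edgeR, adjusted p = 0.10), and passed with the replicate number as a block (0.74, adjusted p = 0.045), where again 0.575% of all were higher and 0.288% lower. Same-numbered libraries of these groups did not deviate together (correlations 0.05, -0.23 and -0.25), so the data give no ground for that block. U1 gave 0.33 ± 0.10 (adjusted p = 0.11), U2 gave 0.51 (adjusted p = 0.18) and passed with DESeq2 at 0.44 (adjusted p = 0.012), which called 3.74% of all subfamilies higher and 2.21% lower, U17 gave 0.23 (adjusted p = 0.38) and U14 gave -0.37 (adjusted p = 0.45). Without Z18trunc replicate 3, U1 at 0.35 (adjusted p = 0.041) and U3 at 0.69 (adjusted p = 0.026) were called higher, where 4.85% of all subfamilies were higher and 4.66% lower. Of 42 copies tested 3 were higher and 0 lower, against 1.72% and 1.49% of all elements, and these 3 were the highest U2 copy in CCDC200, SNORD3D and SNORD3B-2. No copy was called higher without Z18fl replicate 2, without Z18trunc replicate 1 or without Z18trunc replicate 2.

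Other structured RNAs fixed for comparison did not all keep their calls on both scales. 7SK, which holds back transcription elongation, rose by 0.69 with Z18fl (edgeR, adjusted p = 1.6e-06) and by 0.55 with Z18trunc (adjusted p = 4.3e-05) per aligned fragment. With TMM it gave 0.24 with Z18fl (adjusted p = 0.0042) and 0.083 with Z18trunc, which was not called (adjusted p = 0.60). 7SL, the RNA of the signal recognition particle, fell by 0.36 with Z18fl (adjusted p = 0.020) and gave -0.04 with Z18trunc (adjusted p = 0.79), and with TMM it was called lower in both, as U1, U3 and U17 were, at -0.80 (adjusted p = 0.00055) and -0.53 (adjusted p = 0.0075). Among the Y RNAs HY1 was higher with Z18fl per aligned fragment alone, at 0.55 (adjusted p = 0.019) against 0.10 with TMM (adjusted p = 0.69), and was not called with Z18trunc (0.47, adjusted p = 0.11). HY3, HY4 and BC200 passed in neither comparison on either scale. The 5S, LSU and SSU subfamilies of the depleted rRNA passed in neither per aligned fragment, while TMM called LSU (-0.95, adjusted p = 0.024) and SSU (-0.97, adjusted p = 0.00053) lower with Z18trunc. Of the tRNA subfamilies 1 of 9 was higher and 2 lower with Z18fl, and 0 of 10 higher and 2 lower with Z18trunc, and with TMM 0 of 9 were higher in each and 3 and 2 were lower.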

How the data were processed

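PAR-CLIP libraries of 3 replicates for each of 4 constructs in A375 cells were analysed. The authors trimmed reads with cutadapt 4.6, aligned them to hg38 and counted RepeatMasker elements with SQuIRE. The deposited files hold, per element, uniquely mapping counts and estimated counts in which multimapping reads are shared by expectation maximisation, beside aligned fragments per library. The deposited percent column (score) and the divergence from the consensus were taken as given.

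Estimated counts of both strands were rounded and tested with edgeR 4.0.16 (quasi-likelihood, R 4.3.3, limma 3.58.1), with aligned fragments as library size and no further scaling. Each fit took the 6 libraries of a comparison and all repeat classes, filtered by expression (minimum count 10, minimum total 15), and Benjamini-Hochberg adjusted p-values under 0.05 over all features were called. The SE printed for a log2 fold change is its absolute value divided by the square root of the F statistic. Values per library went into exact permutation tests (two-sided), adjusted over 80 tests, of which 20 were added after the values were seen. Tables were handled in Python 3.11.15 with pandas 2.3.3. Gene overlaps and contexts came from GENCODE 44. Near-consensus means at most 2% divergence.

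The text names every subfamily, the highest copy of each with a mean of at least 10 counts, and in each comparison up to 3 called copies that rose most and fell most without overlap and with at least 20 mean counts. Other copies are marked as chosen after their values were seen. Members and lists were chosen with earlier results of these data known. The alternatives were TMM scaling, DESeq2 1.42.0, no filter, one strand, unique counts, all 12 libraries in 1 fit, the replicate number as a block, repeat counts as denominator, 50% gene overlap and leaving out each replicate. The fitting was tested on simulated data. Only in Z18truncZnFmut against Z18trunc did every pair of same-numbered libraries deviate together (correlations 0.65, 0.40 and 0.72 over 575 subfamilies). That hint from the data gives ground for a pairing there, which the main fit and the permutation tests did not use. With the replicate number as a block, 0 of the 1049 subfamilies of that comparison were called.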

Additional observations from a re-analysis of the deposited data

How the results depend on the processing

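For the count of called subfamilies, 6 in Z18trunc against Clover became 3 with all 12 libraries in 1 fit. In Z18truncZnFmut against Clover, 0 became 1 on the sense strand alone, 3 with all 12 libraries and 2 at an unadjusted p. Of all subfamilies 26 of 958, 629 of 1061 and 352 of 1027 were higher in these settings, and 0, 1 and 0 lower. In Z18trunc against Z18fl, 0 became 1 with DESeq2, 1 with the replicate block and 3 at an unadjusted p. In Z18truncZnFmut against Z18trunc, 0 became 1 with DESeq2 and 2 at an unadjusted p. Leaving out 1 replicate gave 6 to 8, 5 to 6, 0 to 3, 0 to 2 and 0 to 4 subfamilies in the 5 comparisons, the last for Z18truncZnFmut against Z18trunc. Of the 1019 to 1064 subfamilies of all classes tested, 538 to 688, 358 to 620, 0 to 450, 0 to 51 and 0 to 6 were then higher. Those lower were 34 to 44, 9 to 14, 0 to 4, 0 to 49 and 0 to 26. For single copies, unique counts gave 10 (from 22) with Z18fl, 12 (from 23) with Z18trunc and 2 (from 10) with Z18truncZnFmut against Clover, where DESeq2 gave 6 and an unadjusted p 16. Of 17837 elements in that comparison DESeq2 called 1348 higher and 449 lower, and an unadjusted p 3509 and 765. In Z18trunc against Z18fl, 3 copies became 0 with all 12 libraries, 7 without a filter and 15 at an unadjusted p. Of all elements 153 of 36152, 197 of 1428302 and 3436 of 28403 were higher in these settings, and 101, 237 and 2531 lower. In Z18truncZnFmut against Z18trunc, 3 became 1 with the replicate block, 8 without a filter and 16 at an unadjusted p. Of all elements 27 of 27901, 82 of 2028525 and 916 of 27901 were higher in these settings, and 30, 50 and 2445 lower. Leaving out 1 replicate gave 19 to 28, 22 to 25, 9 to 14, 0 to 6 and 1 to 4 copies. Of the 18575 to 34998 elements tested, 4748 to 8257, 3619 to 6087, 1309 to 2192, 48 to 604 and 13 to 64 were then higher. Those lower were 1891 to 2640, 417 to 652, 66 to 171, 79 to 344 and 14 to 59. The replicate block moved no other count of calls by over 1.5 times.

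Signs turned as follows (log2). With TMM and DESeq2 in turn, Z18fl against Clover gave -0.23 and -0.23 for U13 and -0.065 and -0.071 for U2, and Z18trunc against Clover gave -0.15 and -0.15 for U5. Z18truncZnFmut against Clover gave -0.51 and -0.51 for U17, -0.56 and -0.56 for U1 and -0.028 and -0.025 for U4, and TMM gave -0.003289 for U14. With unique counts, Z18fl against Clover gave 0.85 for U1, -0.32 for U5 and 0.082 for U8, and Z18trunc against Clover gave 1.07 for U1, 0.96 for U3, 0.83 for U8, 1.07 for SNORD3B-2 (1.075), 0.48 for SNORD3A and 1.31 for RNU1-2. Unique counts gave 0.018 for U3 in Z18truncZnFmut against Clover and -0.35 for U1, -0.15 for U2 and -0.94 for U3 against Z18trunc. Without 1 replicate, U13 ranged from -0.072 to 0.47 with Z18fl, and U4 from -0.26 to 0.037 and U8 from -0.21 to 0.043 with Z18trunc. With repeat counts in place of aligned fragments as the denominator of CPM, Z18truncZnFmut against Clover differed by -4845 in the snRNA class and by -2163 in near-consensus U1. Near-consensus U1 by unique counts differed by 1.215, 2.191 and -0.8737 CPM in Z18fl and Z18trunc against Clover and Z18truncZnFmut against Z18trunc, and the log2 U1 to U2 ratio by 0.30, 0.20 and -0.29. The causes were not tested. Few unique reads limit U1, U2 and U3, and few counts limit U5, U7, U8 and U13.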
